A study of Mus musculus with 2 samples.

Results

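Chemokine ligands and receptors were followed across the cells of the developing mouse esophagus, gastroesophageal squamo-columnar junction (GE-SCJ) and stomach. The set was taken by name: every gene in the deposited table with a symbol Ccl, Cxcl, Ccr or Cxcr and a number, together with *Cx3cl1*, *Cx3cr1* and *Ackr1* to *Ackr4*. This gave 41 of 19550 genes, of which 26 are ligands, 11 are signaling receptors and 4 are atypical receptors. The rule used names only, though it was chosen with earlier results of these data known. Together they held 53133 of the 107865155 unique molecular identifiers (UMIs, each standing for 1 captured transcript) in 7808 cells.

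The tissue came from wild type C57BL/6 mice at 4 stages, embryonic days 15 (E15) and 19 (E19), newborn pups at day 2, and adults of 8 weeks. By the labels, 6 mice were used at E15, 2 each at E19 and as pups, and 3 as adults. The methods of the study give a different number of mice for the pooled cells, so the number behind each group is uncertain. Minced tissue was digested with collagenase II at every stage, cells of different mice were pooled by region and stage with an oligonucleotide tag, and 1 droplet library of 3′ ends was sequenced for all of them. Cells carry no mark of the mouse they came from, so each of the 11 combinations of region and stage is 1 pooled sample without replicates, and the adult stomach was not analysed here. No difference was therefore tested. Levels are given as CPM, meaning UMIs of the gene in every 1000000 UMIs of all cells in a group together, and parentheses hold exact 95% Poisson intervals. Such intervals cover counting error only, not the spread between mice.

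Groups of 1 region and stage held 143 to 1403 cells, and a cell had a median of 10424.5 UMIs (range 519 to 79817). Each cell carries 1 of 9 labels deposited by the authors, and levels were compared within a label. Most of the fixed marker lists followed the labels, but not all. The B cell list was at 191.5 CPM in Endothelial and 149 CPM in Stromal cells, above 81.8 CPM in Immune cells. The lymphatic list was at 535 CPM in Endothelial and 428 CPM in Immune cells. Summed fibroblast markers such as *Col1a1* and *Dcn* reached 20419 CPM in Stromal cells and 3843 CPM or less in the 7 labels outside the stromal pair. Summed mesothelial markers such as *Upk3b* and *Wt1* reached 1841 CPM in Stromal-2 and 7.64 CPM in Stromal, so the Stromal-2 cells carried the transcripts of the serosal lining. These markers also reached 886 CPM in the 40 cells of Squamous Epithelial-2. Of the adult cells, 19 of 335 in the esophagus and 24 of 143 in the GE-SCJ had mostly prenatal cells among their 15 nearest neighbours in expression space, and all 6 adult Immune cells were among them.

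Chemokines are small secreted proteins that direct the movement of cells by binding receptors coupled to G proteins. CXCL12 acts through CXCR4 and guides blood cell precursors, germ cells and vessels during development, whereas ligands such as CXCL1, CXCL2, CCL2 and CCL3 recruit neutrophils and monocytes in inflammation. Atypical receptors (the ACKR family) bind chemokines without the usual signaling and remove or redistribute them. In the gut, epithelial cells, fibroblasts and macrophages all act as sources of chemokines.

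Reads of 10x 3′ libraries do not measure length-normalised abundance, so levels are compared between cells for 1 gene and not between genes. Of the 41 genes, 32 had at least 100 UMIs. *Cxcl5* (28 UMIs, 27 of them in Stromal cells) and *Ccl28* (27 UMIs, leading in Endothelial cells with 1 UMI) were sparse. The 7 genes under 20 UMIs were *Ackr2*, *Ccr9*, *Cxcr3*, *Ccr3*, *Cxcl3*, *Ccr4* and *Cxcr1*, and no level is given for them. Besides the overlaps named with single genes, *Ackr4* overlaps *Acad11*, *Cxcl10* overlaps *Art3* and *Cxcl16* overlaps *Zmynd15* on the opposite strand in the annotation. Any part of these opposite-strand genes in the UMIs was not tested. *Cx3cr1* overlaps *Gorasp1*, *Csrnp1* and *Xirp1* on the same strand, so some of its UMIs may come from these genes.

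The genes divided by cell label. The Immune label made up 4.53% of the cells and held 42.9% of the chemokine UMIs, which was 6054 CPM against 547.6 CPM in the Stromal label. Of the 32 genes with at least 100 UMIs, 18 had their highest level in Immune cells, 4 in Stromal, 4 in Stromal-2, 4 in Columnar Epithelial and 2 in Endothelial cells. No gene led in Smooth Muscle, Neural or the squamous labels. The labels were themselves derived from these counts, so this division is a description.

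**Figure D1:**
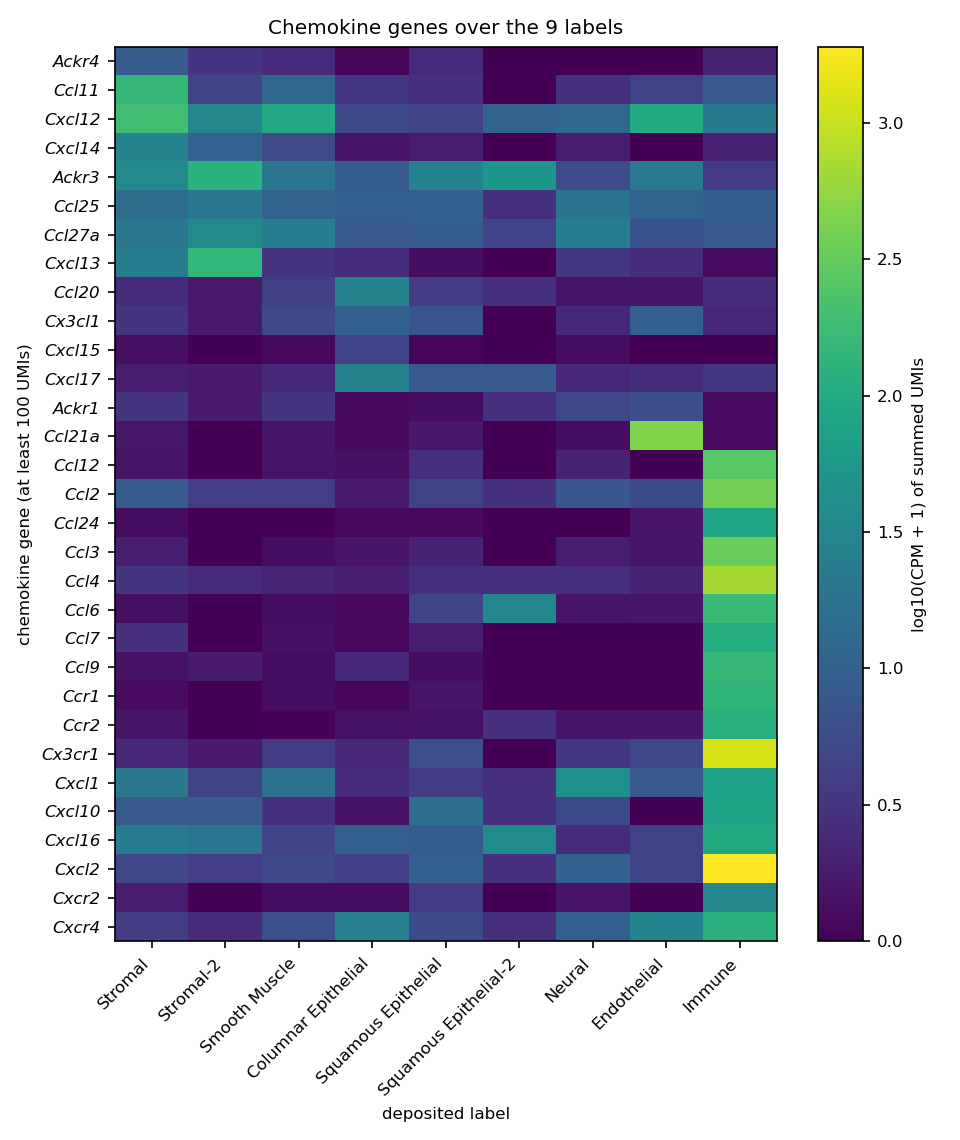
Heat map of 31 of the 32 chemokine genes with at least 100 UMIs (rows) over the 9 deposited labels (columns), colored by log10(CPM + 1) of summed UMIs over all regions and stages. Rows are ordered by leading label: 4 genes lead in Stromal, 4 in Stromal-2, 4 in Columnar Epithelial, 2 in Endothelial and 17 in Immune cells. Colors are to be compared along a row, since levels of different genes are not on a common scale.

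Stromal cells carried *Cxcl12*, *Ccl11*, *Cxcl14* and *Ackr4*. *Cxcl12*, the ligand of CXCR4 and ACKR3, was at 187.6 CPM in Stromal cells and next at 97.1 CPM in Endothelial cells. *Ccl11*, the eosinophil attractant eotaxin, was at 150.6 CPM against 11.5 CPM in Smooth Muscle. *Cxcl14*, a ligand made by many epithelia and fibroblasts, was at 28.2 CPM against 9.68 CPM in Stromal-2.

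*Ackr4*, a scavenger of CCL19, CCL21 and CCL25, was at 8.07 CPM in Stromal cells against 2.23 CPM in the next label. A UMI of *Cxcl12* was found in 1942 of 3442 Stromal cells (56.4%). After random thinning of every cell to 2000 UMIs, the share was 25.7% (24.3 to 27.2) of 3402 cells at a median depth of 8940 UMIs before thinning. The thinned share in Columnar Epithelial cells was 0.720% (0.360 to 1.29) at a median of 25118 UMIs. Of the 760 Stromal cells with *Ccl11*, 535 (70.4%) also had *Cxcl12*, against 56.4% of all Stromal cells. At E15, 238 of 350 Stromal cells in the GE-SCJ and 236 of 360 in the stomach had *Cxcl12*. The part of region in this overlap was not tested.

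Several of these ligands differed between regions in Stromal cells. At E15, *Ccl11* was at 21.8 CPM (17.4 to 27.0) in the esophagus, 163 CPM (150.5 to 177) in the GE-SCJ and 288 CPM (271 to 306) in the stomach. At E19 the values were 14.3 CPM (11.7 to 17.4), 161.7 CPM (151.5 to 172.5) and 287 CPM (275 to 301). The GE-SCJ thus lay between the esophagus and the stomach at both stages, with no overlap of the counting intervals. The log2 ratio of esophagus over stomach was -3.71 (-4.05 to -3.39) at E15 and -4.31 (-4.62 to -4.02) at E19. In the pup the 3 regions came closer, at 66.9 CPM, 109 CPM and 98.5 CPM, with overlapping intervals. The gastric pup level rested on 44 UMIs, of which 24 were in 1 cell.

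*Cxcl12* showed the same order of esophagus and stomach before birth. It was at 110.5 CPM (100.2 to 122) in the esophageal, 238.5 CPM (223 to 255) in the GE-SCJ and 259 CPM (243 to 276) in the gastric Stromal cells at E15, and at 81.8 CPM (75.2 to 88.8), 273 CPM (260 to 287) and 201.5 CPM (191 to 213) at E19. The log2 ratio of esophagus over stomach was -1.23 (-1.39 to -1.06) at E15 and -1.30 (-1.44 to -1.16) at E19. In the pup the levels were 184.7 CPM (153 to 222), 188 CPM (148 to 236) and 154.5 CPM (120 to 196), and no region stood apart. The adult esophageal Stromal cells, 31 in number, were at 192 CPM (130 to 272).

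*Ackr3*, the atypical receptor that takes up CXCL12, had the opposite regional order. In Stromal cells at E15 it was at 69.0 CPM (60.9 to 77.9) in the esophagus, 15.4 CPM (11.7 to 19.9) in the GE-SCJ and 19.4 CPM (15.2 to 24.3) in the stomach. In the pup it was at 111.5 CPM (86.9 to 141), 2.54 CPM (1 UMI) and 20.2 CPM (9 UMIs). The esophageal Stromal cells were therefore the ones with less *Cxcl12* and more *Ackr3* at E15. The log2 ratio of esophagus over stomach for *Ackr3* was 1.82 (1.44 to 2.21) at E15 and 2.34 (1.37 to 3.46) in the pup, whereas at E19 the levels of 41.6 CPM and 29.2 CPM were within 2-fold. The 2 genes were not exclusive, since 368 of the 672 Stromal cells with *Ackr3* had a UMI of *Cxcl12*.

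*Cxcl14* and *Cxcl16* also differed by region. *Cxcl14* was higher in the esophagus than in the stomach at E15, at 51.5 CPM against 14.1 CPM (log2 ratio 1.84, 1.41 to 2.30), with the GE-SCJ at 57.3 CPM. *Cxcl16*, a membrane-bound ligand and scavenger receptor for oxidised lipoprotein, was at 18.9 CPM against 5.76 CPM at E15 (1.67, 0.98 to 2.41) and at 53.2 CPM against 15.9 CPM at E19 (1.73, 1.42 to 2.06). At E15 these 2 ligands were thus on the esophageal side, with *Ccl11* and *Cxcl12* on the gastric side. At E19 *Cxcl16* kept this side, whereas *Cxcl14* was not among the genes at least 2-fold apart.

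Of the whole set, 7 of 13 compared chemokine genes were at least 2-fold apart between esophageal and gastric Stromal cells at E15, where 8.29% of all compared genes were. The counts were 8 of 17 at E19 (10.4% of all genes) and 3 of 7 in the pup (9.42%). A gene was compared here with at least 20 UMIs over both groups, and both groups needed at least 20 cells. The remaining E15 differences were *Ccl2*, a monocyte attractant, with a log2 ratio of -1.58 (-2.44 to -0.79), and *Ccl4*, at 1.88 with 13 of its 21 esophageal UMIs in 1 cell. At E19 the sparse remainder was lower in the esophagus, with *Ackr1* at -1.81, *Ccl2* at -1.49, *Cx3cl1* at -2.15, *Cxcl10* at -2.52 and *Cxcl13* at -1.17. Of the last, 11 of 61 gastric UMIs were in 1 cell, and with the top 1% of cells for the gene left out its log2 ratio was 0.14. In the pup, *Ccl2* was at 1 UMI in the esophagus against 50 UMIs in the stomach (-5.16, -8.25 to -3.24), and *Cxcl1* was at -1.58 (-2.14 to -1.03).

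**Figure D2:**
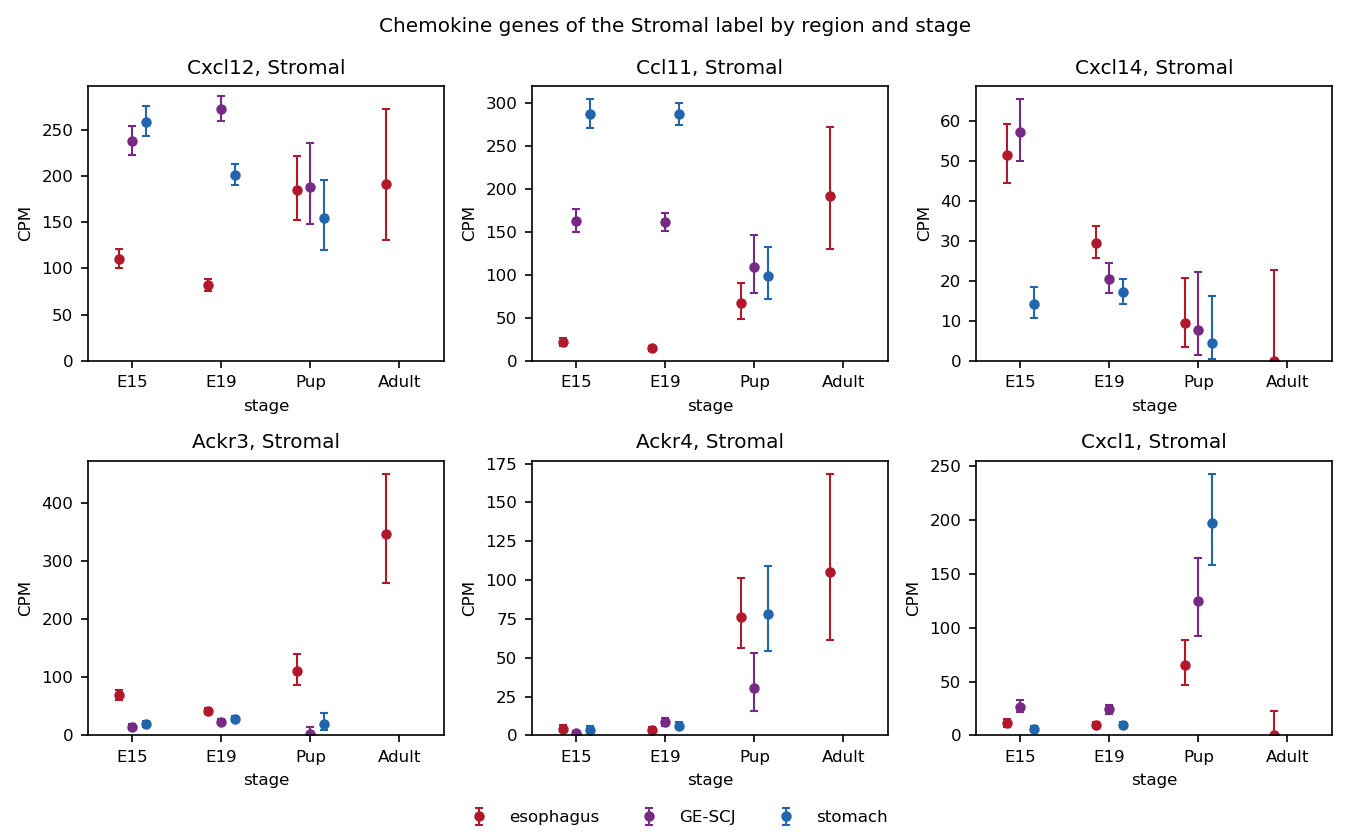
Levels of 6 chemokine genes in Stromal cells (CPM of summed UMIs, linear axes from 0) by stage, with points colored by region and bars giving exact 95% Poisson intervals; groups under 20 cells are left out. *Ccl11* and *Cxcl12* are lowest in the esophagus at E15 and E19, and *Ackr3* is highest there at E15 and in the pup. *Ackr4* is higher in the pup and adult than before birth, and *Cxcl1* is highest in the pup, with no UMI in the adult esophagus.

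Another group of Stromal genes differed between stages. *Ackr4* was at 3.94 CPM (2.20 to 6.49) in the esophagus and 3.67 CPM (2.01 to 6.15) in the stomach at E15, at 3.58 CPM and 6.35 CPM at E19, and at 76.5 CPM (56.4 to 101) and 78.4 CPM (54.6 to 109) in the pup. The log2 ratio of pup over E15 was 4.22 (3.38 to 5.13) in the esophagus and 4.36 (3.45 to 5.33) in the stomach. The GE-SCJ was at 1.33 CPM at E15 and at 30.5 CPM (15.8 to 53.3) in the pup, with too few UMIs (17 over both) for the ratio. The 31 adult esophageal Stromal cells were at 105 CPM (61.3 to 169). Pup and adult levels of this scavenger were above both prenatal levels in the esophagus, and no more than 4 of its UMIs lay in any 1 cell.

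*Cxcl14* was lower in the pup than at E15. It was at 51.5 CPM, 57.3 CPM and 14.1 CPM in the esophagus, GE-SCJ and stomach at E15 and at 9.56 CPM, 7.62 CPM and 4.48 CPM in the pup. The log2 ratios of pup over E15 were -2.21 (-3.55 to -1.14), -2.50 (-4.39 to -1.13) and -1.10 (-3.42 to 0.52), the last with an interval across 0. No UMI was found in the 31 adult cells. *Ccl11* differed in opposite directions by region, with a pup level of 66.9 CPM against 21.8 CPM at E15 in the esophagus (1.64, 1.07 to 2.18) and of 98.5 CPM against 288 CPM in the stomach (-1.52, -1.98 to -1.09). Of its 44 gastric pup UMIs, 24 were in 1 cell.

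*Cxcl1*, a neutrophil attractant that signals through CXCR2, was the only compared gene at least 2-fold higher in pup than E15 Stromal cells of all 3 regions. It was at 11.3 CPM (8.17 to 15.2), 26.8 CPM (21.8 to 32.6) and 5.76 CPM (3.61 to 8.72) in the esophagus, GE-SCJ and stomach at E15, and at 65.3 CPM (46.9 to 88.6), 124.5 CPM (92.1 to 165) and 197 CPM (158 to 243) in the pup. The log2 ratios were 2.53 (1.89 to 3.18), 2.23 (1.71 to 2.73) and 5.05 (4.37 to 5.78). The pup UMIs came from 14 cells in each region, of 151, 82 and 78 cells. No UMI was found in the 31 adult esophageal cells. With a floor of 3 counts this was 3.52-fold lower than in the pup (log2 interval -8.77 to -0.88).

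The same gene was high in other pup cells of the wall. Pup Smooth Muscle cells had *Cxcl1* at 128 CPM (100.5 to 161) in the GE-SCJ and 98.5 CPM (74.2 to 128) in the stomach, against 2.89 CPM and 1.21 CPM at E15 (log2 ratios 5.23 and 5.79). These UMIs came from 11 of 119 and 8 of 113 cells, and 33 of the 55 gastric UMIs were in 1 cell. Pup esophageal Neural cells had 91 UMIs in 6 of 24 cells, at 884 CPM (712 to 1086) against 3.61 CPM at E15 (7.54, 6.13 to 9.44), with 38 UMIs in the highest cell. *Cxcl1* was thus carried by a minority of pup cells of each kind.

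A list of 10 early response genes (*Fos*, *Fosb*, *Jun*, *Junb*, *Egr1*, *Atf3*, *Ier2*, *Ier3*, *Nfkbia* and *Zfp36*), chosen after the *Cxcl1* values were seen, moved with it. Its summed level in Stromal cells was 4626 CPM, 7942 CPM and 5740 CPM at E15, 14725 CPM, 14485 CPM and 14474 CPM in the pup, and 2018 CPM in the adult esophagus. In pup gastric Stromal cells it was 20989 CPM in the 14 cells with *Cxcl1* and 12697 CPM in the 64 cells without. Adult esophageal Smooth Muscle cells were at 13215 CPM for the list and 64.2 CPM (32.0 to 115) for *Cxcl1* (11 UMIs in 3 of 30 cells). Pup Stromal cells were also shallower, with a median of 3859 to 5072.5 UMIs against 9858 to 10573 at E15. The part of tissue digestion or depth in the *Cxcl1* levels was not tested.

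**Figure D3:**
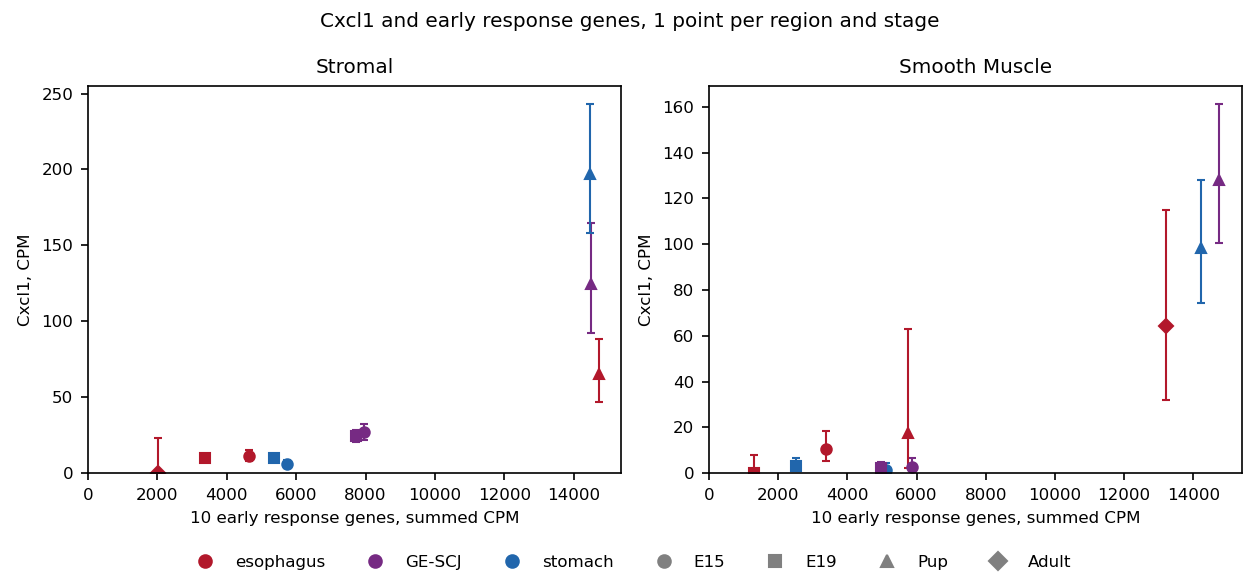
*Cxcl1* (vertical axis, CPM with exact 95% Poisson intervals) against the summed level of 10 early response genes (horizontal axis, CPM) in Stromal cells (left) and Smooth Muscle cells (right), with 1 point per region (color) and stage (shape) of at least 20 cells. The 3 pup Stromal points lie between 65.3 and 197 CPM of *Cxcl1*, with the list at 14474 to 14725 CPM, and the 7 points of the other stages lie at 26.8 CPM or below, with the list at 2018 to 7942 CPM.

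*Cxcl1* and its neighbour *Cxcl2*, another neutrophil attractant, lie in a cluster of CXC ligands with *Cxcl5*, *Cxcl3* and *Cxcl15* that spans 146.6 kb of chromosome 5 (90759360 to 90905938, GRCm38). Their proximal promoters are shown because the 2 genes were found in the same Immune cells, as described further on. The 200 bases before the RefSeq start on the plus strand (GRCm38.p6) were taken for *Cxcl1* at chr5:90891045-90891244 and for *Cxcl2* at chr5:90903699-90903898. Capitals mark matches, on either strand, to GGAATTTCC, letters of the kind that NF-κB binds.
Cxcl1: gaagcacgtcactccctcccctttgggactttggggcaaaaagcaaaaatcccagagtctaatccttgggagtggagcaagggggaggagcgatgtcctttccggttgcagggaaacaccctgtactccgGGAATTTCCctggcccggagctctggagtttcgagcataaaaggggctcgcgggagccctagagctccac
Cxcl2: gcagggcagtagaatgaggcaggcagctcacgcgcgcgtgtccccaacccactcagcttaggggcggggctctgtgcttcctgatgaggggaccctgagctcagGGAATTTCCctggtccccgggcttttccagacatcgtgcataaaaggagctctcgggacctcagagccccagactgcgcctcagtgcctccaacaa
The match lay 70 to 62 bases before the start in *Cxcl1* and 96 to 88 bases before it in *Cxcl2*. Among all 32851 mouse promoters of 300 bases in the RefSeq table, 104 (0.317%) held GGAATTTCC on either strand. Of the 41 genes, 32 had a promoter in the table (35 promoters), and the letters were found in 5 of these promoters, those of *Cxcl1*, *Cxcl2*, *Cxcl3*, *Cxcl10* and *Ccr3*. A match of letters is a description of the sequence and was not tied to any level here.

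The remaining stage differences of Stromal cells rested on fewer UMIs. In the GE-SCJ, *Cxcl13*, which attracts B cells, was at 137 CPM in the pup against 19.4 CPM at E15 (2.83, 2.30 to 3.35), with 17 of 54 pup UMIs in 1 cell. *Cxcl2* was at 1.98 there (0.47 to 3.32), with 5 of its 6 pup UMIs in 1 cell. *Cxcl10* had no UMI in the pup, 2.12-fold lower with a floor of 3 counts (log2 interval -8.02 to -0.16). Of its 61 UMIs at E15, 32 were in 1 cell. Intervals across 0 were found for *Ackr3* (1 pup UMI, -1.62, -4.70 to 0.29), *Ccl25* (2 pup UMIs, -1.09, -3.40 to 0.53) and *Cxcl16* (5 pup UMIs, 1.14, -0.43 to 2.46). The *Ackr3* levels were 2.54 CPM and 15.4 CPM, so the UMI added to each sum made its ratio and interval less negative. The *Cxcl16* levels were 12.7 CPM and 6.63 CPM, so its ratio passed 2-fold only with the UMI added to each sum. In the stomach, *Ccl2* was at 112 CPM against 13.9 CPM (3.01, 2.43 to 3.59). Its neighbour *Ccl7*, another monocyte attractant, was at 3.81 with 16 of 17 pup UMIs in 1 cell, *Cxcl16* was at 1.74 (0.45 to 2.91) and *Ccl27a*, a skin-homing ligand, at -1.35 (-3.25 to 0.06).

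Over all compared chemokine genes in Stromal cells, 4 of 12 were at least 2-fold apart between pup and E15 in the esophagus, where 26.1% of all compared genes were. The counts were 8 of 12 in the GE-SCJ (26.5% of all genes) and 8 of 13 in the stomach (23.5%). In the esophagus the count was close to that of other genes. In adult over pup esophageal Stromal cells, *Ackr3* was at 346.6 CPM (262 to 450) against 111.5 CPM (1.64, 1.11 to 2.16) and *Ccl11* at 192 CPM against 66.9 CPM (1.53, 0.82 to 2.23). Without the 3 adult cells that had mostly prenatal neighbours, the adult levels were 382 CPM and 215 CPM.

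Genes that act with chemokines were counted by the same rule. Of a list of 30 related genes (chemoattractants outside the set, G protein subunits, arrestins and migration adaptors), 28 were measured. In Stromal cells, 5 of 15 compared were higher and 2 lower in the pup in the esophagus, 5 and 3 of 14 in the GE-SCJ, and 2 and 2 of 13 in the stomach. Of all compared genes, 26.1%, 26.5% and 23.5% were at least 2-fold apart in either direction in these regions. In the stomach the count of related genes was close to that of all genes. *Rarres2*, which encodes the attractant chemerin, was at 742 CPM against 178 CPM in the GE-SCJ (2.06) and 537.5 CPM against 127 CPM in the stomach (2.09). *Elmo1*, a migration adaptor, was at 2.10 and 3.30 in these regions, *Pf4*, a platelet chemokine, at 2.11 in the GE-SCJ, and *Gng2*, a G protein subunit, at -2.26 in the stomach. In the esophagus the leading genes were *Mif*, a cytokine that binds CXCR4, at -2.63, *Cmklr1*, the chemerin receptor, at 1.92 and *Prex1* at 1.31.

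Stromal-2 cells led for *Cxcl13*, *Ackr3*, *Ccl27a* and *Ccl25*. *Cxcl13* was at 146 CPM in Stromal-2 against 22.6 CPM in Stromal cells. In the 2 Stromal-2 groups of at least 20 cells it was at 150 CPM (118 to 187.5) in the E19 GE-SCJ (25 of 46 cells with a UMI) and at 81.5 CPM (46.6 to 132) in the pup stomach (9 of 27 cells). *Ackr3* was at 121 CPM over the label, next to 52.2 CPM in Squamous Epithelial-2. It was at 58.4 CPM (39.4 to 83.4) in the E19 GE-SCJ and 204 CPM (146 to 277) in the pup stomach. The label that led for both genes was therefore the one with the mesothelial transcripts.

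*Ccl27a* and *Ccl25*, which draw lymphocytes to skin and small intestine, were spread over many labels. *Ccl27a* was at 34.3 CPM in Stromal-2 and 25.2 CPM in Smooth Muscle, and *Ccl25* was at 19.4 CPM in Stromal-2 and 17.1 CPM in Neural cells. Both genes overlap a gene on the opposite strand, *Il11ra1* and *Elavl1*, and any part of these in the UMIs was not tested. Near-identical copies of *Ccl27a* exist, so the source of its UMIs is uncertain.

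Smooth Muscle cells had less *Cxcl12* in the esophagus than in the stomach at E19 and in the pup, whereas pup Stromal cells showed no such order. It was at 23.8 CPM in the esophagus and 61.1 CPM in the stomach at E19 (-1.25, -2.24 to -0.39), and at 26.2 CPM (3 UMIs) and 170 CPM in the pup (-2.30, -4.21 to -0.90). Gastric Smooth Muscle was at 75.6 CPM at E15, so its pup level was higher (1.17, 0.78 to 1.57), whereas the esophagus was at 82.0 CPM at E15 (-1.25, -3.15 to 0.16). *Ccl11* was higher in pup than E15 Smooth Muscle of the GE-SCJ (24.6 CPM against 4.62 CPM, 2.34) and the stomach (57.3 CPM against 9.68 CPM, 2.52). In esophagus over stomach it was at -1.26 at E19 and -1.18 in the pup, both with intervals across 0, and *Cxcl1* was at -1.94 in the pup. *Cxcr4* had 1 UMI in the pup stomach against 20 at E15 (-1.83, -4.96 to 0.21).

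Columnar Epithelial cells carried the receptor *Cxcr4* and led for the ligands *Ccl20*, *Cxcl17*, *Cxcl15* and *Cx3cl1*. Over all stages together, *Cxcr4* was at its highest outside the Immune label in Endothelial cells (29.2 CPM). At E15, however, Endothelial cells were at 12.9 CPM (6.20 to 23.8). Columnar Epithelial cells were then at 45.3 CPM in the GE-SCJ and 49.7 CPM in the stomach. In the pup the order was the other way, with Endothelial cells at 77.4 CPM (9 UMIs). Of 1540 Columnar Epithelial cells, 544 (35.3%) had a UMI of *Cxcr4*. After thinning to 2000 UMIs the share was 4.72% (3.71 to 5.90) of Columnar Epithelial cells at a median of 25118 UMIs, and 0.459% (0.0947 to 1.33) of Squamous Epithelial cells at a median of 12028.5 UMIs.

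*Cxcr4* was lower after birth in Columnar Epithelial cells of both regions. It was at 45.3 CPM (34.6 to 58.3), 39.6 CPM (35.2 to 44.5) and 13.7 CPM (11.3 to 16.5) in the GE-SCJ of the 3 stages E15, E19 and pup, and at 49.7 CPM (42.9 to 57.3), 27.7 CPM (24.4 to 31.2) and 12.4 CPM (10.5 to 14.7) in the stomach. The log2 ratios of pup over E15 were -1.74 (-2.20 to -1.27) and -2.0 (-2.32 to -1.68), below the median of all compared genes of -0.42 and -0.41. *Ackr3*, the other receptor for CXCL12, went with it, from 20.4 CPM and 13.2 CPM at E15 to 3.66 CPM and 3.85 CPM in the pup (-2.48, -3.27 to -1.69, and -1.77, -2.38 to -1.17). Of the 257 Columnar Epithelial cells with *Ackr3*, 127 also had *Cxcr4*. *Cxcl12* itself was sparse here and lower in the pup GE-SCJ (-2.12), and 18 of its 25 UMIs at E15 were in 1 cell.

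*Cxcl17*, a ligand made by mucosal epithelia, was the gene with the highest pup over E15 ratio in these cells. It was at 3.78 CPM (5 UMIs) in the GE-SCJ and 4.40 CPM (17 UMIs) in the stomach at E15, at 2.93 CPM and 3.04 CPM at E19, and at 70.7 CPM (579 UMIs in 142 of 291 cells) and 38.6 CPM (441 UMIs in 147 of 351 cells) in the pup. The log2 ratios were 3.97 (2.83 to 5.42) and 3.05 (2.38 to 3.82). It overlaps an antisense gene, *4732471J01Rik*, in the annotation. *Cxcl15*, a ligand known from lung epithelium, was lower after birth in the stomach, with 14.5 CPM (11.0 to 18.8), 5.24 CPM and 1.14 CPM at E15, E19 and pup stages (-3.59, -4.55 to -2.73).

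*Ccl20*, which attracts immature dendritic cells and lymphocytes through CCR6, was at 28.6 CPM in Columnar Epithelial cells against 3.23 CPM in the next label, and 90.7% of its UMIs were there. It was at 12.8 CPM (7.48 to 20.6) in the GE-SCJ and 36.3 CPM (30.5 to 42.8) in the stomach at E15, 19.5 CPM and 33.2 CPM at E19, and 34.9 CPM (31.0 to 39.2) and 25.0 CPM (22.1 to 28.0) in the pup. The GE-SCJ was thus below the stomach before birth and above it in the pup. The pup over E15 ratio in the GE-SCJ was 1.37 (0.68 to 2.14), where 10 of the 17 E15 UMIs were in 1 cell. Of the 338 cells with *Ccl20*, 117 (34.6%) also had *Cxcl17*, which was found in 22.6% of all Columnar Epithelial cells.

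*Cx3cl1*, the membrane-bound ligand of CX3CR1, was at 9.32 CPM in Columnar Epithelial and 8.42 CPM in Endothelial cells, and it stayed between 6.22 and 14.0 CPM in the Columnar Epithelial cells of the GE-SCJ and stomach from E15 to the pup. In total, 5 of 10 compared genes were at least 2-fold apart between pup and E15 in the GE-SCJ, where 34.4% of all compared genes were, and 5 of 13 in the stomach, where 33.1% were. In the stomach the count included *Cxcl1* at 1.24 (-0.50 to 3.63). In the E19 esophagus, where 20 cells had this label, *Cxcl17* (1.66), *Ccl27a* (1.05, -0.65 to 2.40) and *Cxcl1* (1.81, -0.21 to 3.41) had 5 UMIs or fewer each.

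**Figure D4:**
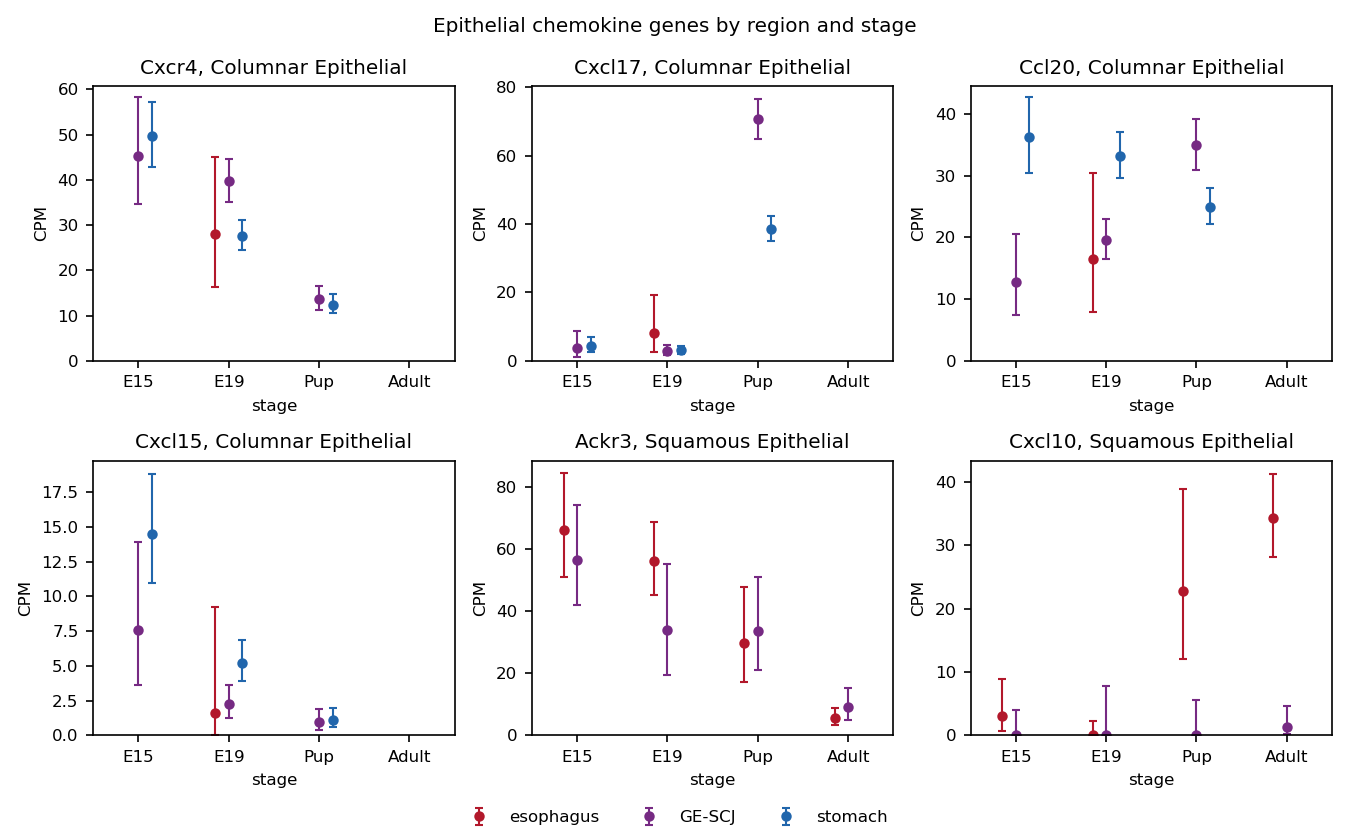
Levels of 4 genes in Columnar Epithelial cells and 2 genes in Squamous Epithelial cells (CPM of summed UMIs, linear axes from 0) by stage, with points colored by region and bars giving exact 95% Poisson intervals; groups under 20 cells are left out. *Cxcr4* and *Cxcl15* are lower and *Cxcl17* is higher in pup Columnar Epithelial cells than before birth, and *Ackr3* is lowest in adult Squamous Epithelial cells.

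Squamous Epithelial cells carried *Ackr3* with few *Cxcr4* transcripts. *Ackr3* was at 66.2 CPM (51.1 to 84.3), 56.1 CPM (45.3 to 68.8), 29.8 CPM (17.4 to 47.7) and 5.61 CPM (3.32 to 8.86) in the esophagus at E15, E19, pup and adult stages. In the GE-SCJ it was at 56.4 CPM, 34.0 CPM, 33.6 CPM and 9.04 CPM. Intervals of neighbouring stages overlapped up to the pup, and the adult lay below the other 3 stages in both regions. The esophageal log2 ratio was -1.09 (-1.93 to -0.32) for pup over E15 and -2.41 (-3.42 to -1.40) for adult over pup.

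*Ackr3* was found in 5.66% (4.01 to 7.71) of Squamous Epithelial cells after thinning, against 0.946% (0.196 to 2.74) of Immune cells at a median of 8266.5 UMIs. Of the 690 Squamous Epithelial cells, 31 had a *Cxcr4* UMI, 183 had an *Ackr3* UMI and 21 had both. *Cxcr4* was lower in the pup GE-SCJ (1 UMI against 21 at E15, -3.00). *Ccl25* was lower in the pup esophagus (-1.33), and *Ccl27a* was lower in the adult than in the pup esophagus (-3.13, -4.52 to -1.82).

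*Cxcl10*, an interferon-induced ligand of CXCR3, was at 34.3 CPM (28.2 to 41.3) in adult esophageal Squamous Epithelial cells (110 UMIs in 23 of 232 cells) and at 22.8 CPM in the pup (13 UMIs in 2 of 56 cells), and adult GE-SCJ cells had 2 UMIs in 86 cells. *Cxcr2* had 25 UMIs in 15 of the 232 adult cells against 1 UMI in the pup (1.21, -0.79 to 4.33). In pup GE-SCJ cells *Cxcl17* had 41 UMIs in 5 of 44 cells and none at E15, and 1 cell held 21 of the 41 UMIs. With a floor of 3 counts this was 18.9-fold higher (log2 interval 3.30 to 11.19). These 5 cells had columnar markers at 2397 CPM against 420 CPM in the other 39, and squamous markers at 9112 CPM against 5538 CPM, and the part of mixed barcodes was not tested. *Cxcl2* had no UMI in the pup GE-SCJ, 10.6-fold lower with a floor of 3 counts (log2 interval -10.36 to -2.48). Of its 44 UMIs at E15, 41 were in 1 cell, which also held 57 UMIs of the pan-immune list.

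Endothelial cells led for *Ccl21a* and *Ackr1*. *Ccl21a*, which guides dendritic cells into lymph vessels, was at 449 CPM in Endothelial cells and 0.690 CPM in the next label. Each cell was placed with the blood or the lymphatic marker list, whichever gave most of its list UMIs. *Ccl21a* was found in 15 of 15 cells of the lymphatic list at 6499 CPM (6056 to 6966) and in 1 of 142 cells of the blood list at 1.21 CPM. Its levels over the 4 stages, of 399.5, 47.0, 2957 and 1728 CPM, went with the number of lymphatic cells, which were 4 of 46, 1 of 69, 7 of 21 and 3 of 21. Near-identical copies of *Ccl21a* exist, so its UMIs may include theirs.

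*Cxcr4* was at 31.4 CPM (23.4 to 41.1) in cells of the blood list. No UMI was found in the 15 lymphatic cells, which allows up to 30.1 CPM, so a difference between the lists was not detectable at this depth. *Cxcl12* was at 80.2 CPM (61.5 to 103), 54.3 CPM (39.6 to 72.6), 34.4 CPM (9.37 to 88.0) and 1001 CPM (768 to 1284) in Endothelial cells at E15, E19, pup and adult stages. The adult value stood far above the others and rested on 62 UMIs in 11 of 21 cells. Without the 4 adult cells that had mostly prenatal neighbours it was 808 CPM, with 43 UMIs in 7 of 17 cells. *Ackr3* was at 6.47 CPM and 12.1 CPM before birth and at 163 CPM (98.3 to 255) in the pup, from 19 UMIs. *Ackr1*, the promiscuous chemokine receptor of venules and red cells, was at 5.05 CPM in Endothelial cells and 4.01 CPM in the next label. Only 9 of its 130 UMIs were in Endothelial cells, so its lead there rests on few UMIs. It overlaps *Cadm3* on the same strand.

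Immune cells led for the remaining 18 genes, of which 17 are described. Of the 354 cells, 270 had most of their list UMIs from macrophage markers such as *Csf1r* and *C1qa*, 43 from neutrophil markers such as *S100a8* and *Retnlg*, 12 from the mast cell, T cell and B cell lists, and 29 from none. *Cx3cr1*, the fractalkine receptor of resident macrophages, was at 1186 CPM in Immune cells and 5.22 CPM in the next label. After thinning, 66.2% (60.7 to 71.4) of Immune cells and 0.265% (0.121 to 0.502) of Stromal cells had a UMI. *Cxcr2*, the neutrophil receptor for CXCL1 and CXCL2, was at 29.8 CPM against 2.86 CPM in the next label.

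*Cx3cr1* and *Cxcr2* differed between the cells of these lists, whereas other receptors were found in both. *Cx3cr1* was at 1393 CPM in cells of the macrophage list and 66.0 CPM in those of the neutrophil list, and *Cxcr2* was at 3.15 CPM and 333.5 CPM. Of 246 Immune cells with *Cx3cr1* and 34 with *Cxcr2*, 7 had both. *Ccr2*, the monocyte receptor for CCL2, was at 112 CPM and 181 CPM in the 2 lists, *Ccr1* at 149 CPM and 146 CPM, and *Cxcr4* at 108 CPM and 240 CPM. The next-highest levels among the labels were 1.80 CPM for *Ccr2* and 0.493 CPM for *Ccr1*.

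The monocyte attractants were in the macrophage-list cells. *Ccl2* was at 463 CPM there and 10.4 CPM in neutrophil-list cells, and *Ccl12* and *Ccl7* were at 313 CPM and 127 CPM there with no UMI in the 43 neutrophil-list cells. *Ccl24*, an eosinophil attractant, was at 98.9 CPM against no UMI, and *Cxcl16* at 112 CPM against 1 UMI. *Cxcl2* was at 2084 CPM and 1077 CPM, and *Ccl6* at 142 CPM and 302 CPM, so both lists carried these. The genes were found in the same cells in several cases. Of 47 Immune cells with *Cxcl1*, 45 also had *Cxcl2*, against 54.8% of all Immune cells. Of 68 cells with *Ccl7*, 62 had *Ccl2* (43.8% of all Immune cells), and 92 of 125 cells with *Ccl4* had *Ccl3* (46.9%). The shares of all Immune cells include the neutrophil-list cells and 29 cells of no list at a median of 1734 UMIs. The part of cell type and depth in these overlaps was not tested. *Ccl2*, *Ccl7*, *Ccl11* and *Ccl12* lie within 67.83 kb of chromosome 11 (82035571 to 82103400), and *Ccl9*, *Ccl6*, *Ccl3* and *Ccl4* within 91.77 kb (83572919 to 83664683).

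The genes differed in how much of their transcript lay outside the Immune label and in how much of that lay in cells with immune markers. Of 7454 cells outside the Immune label, 92 (1.23%) had at least 2 UMIs of 5 pan-immune genes. These cells held 35.1% of the 202 *Cx3cr1* UMIs outside the label, 52.3% of the 44 *Ccr2* UMIs, 36.5% of the 63 *Ccl12* UMIs and 21.2% of the 438 *Cxcl2* UMIs, against 2.07% of the 1064 *Cxcl1* UMIs, 2.19% of the 1277 *Cxcl16* UMIs, 2.90% of the 1378 *Cxcr4* UMIs and 0.223% of the 449 *Cxcl10* UMIs. The last 4 genes had most of their UMIs outside the Immune label, of totals of 1347, 1639, 1841 and 736, and nearly all of these in cells without the markers. Over all stages, the next label was Neural for *Cxcl1* (41.9 CPM, against 75.2 CPM in Immune cells). It was Squamous Epithelial-2 for *Cxcl16* (36.0 CPM against 96.2 CPM) and Squamous Epithelial for *Cxcl10* (13.8 CPM against 76.3 CPM). In the pup alone, *Cxcl1* was higher in Neural cells, at 481 CPM (403 to 571) against 146.5 CPM (118 to 180) in Immune cells. The leading and next levels were 1895 CPM and 9.08 CPM for *Cxcl2*, 393 CPM and 7.86 CPM for *Ccl2*, 349 CPM and 1.08 CPM for *Ccl3*, and 688 CPM and 2.25 CPM for *Ccl4*. They were 264 CPM and 1.87 CPM for *Ccl12*, 107 CPM and 1.88 CPM for *Ccl7*, 153 CPM and 1.39 CPM for *Ccl9*, 165 CPM and 30.6 CPM for *Ccl6*, and 83.7 CPM and 0.562 CPM for *Ccl24*.

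Stage levels of the Immune label were taken over all regions. From E15 through E19 to the pup, *Cx3cr1* was at 1482 CPM (1408 to 1559), 1211 CPM (1165 to 1260) and 699.6 CPM (635 to 769). *Cxcl2* was at 1302 CPM (1233 to 1374), 1832 CPM (1774 to 1891) and 3236 CPM (3095 to 3382). Over the pooled regions, the receptor of resident macrophages was therefore lowest, and the neutrophil attractant highest, in the pup. By region, the log2 ratio of pup over E15 for *Cx3cr1* was -1.77 in the esophagus and -0.68 in the GE-SCJ. For *Cxcl2* it was 0.58 and 1.57, so each gene passed 2-fold in only 1 of these regions. Early response genes were at 9509 to 12791 CPM in the 3 E15 groups and at 13444 CPM and 20408 CPM in the pup esophagus and GE-SCJ, and their part in these levels was not tested.

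*Ccl6* and *Ccl9*, neighbouring genes for macrophage-made attractants, were high in the pup. Over these stages *Ccl9* was at 78.6 CPM (62.3 to 97.9), 54.3 CPM (44.8 to 65.3) and 614 CPM (553 to 680), and *Ccl6* was at 88.5 CPM (71.1 to 109), 98.0 CPM (85.0 to 112) and 477 CPM (424 to 536). Within macrophage-list cells alone, *Ccl9* was at 76.7 CPM, 50.3 CPM and 784 CPM, and *Ccl6* at 58.7 CPM, 48.0 CPM and 598 CPM. The pup difference was thus as large without the neutrophil-list cells, which were 8 of 82, 20 of 180 and 15 of 86 cells. *Cxcr4* was at 69.8 CPM, 92.7 CPM and 326 CPM over the label and at 46.3 CPM, 79.6 CPM and 345 CPM in macrophage-list cells. *Ccl12* was highest at E15, at 424 CPM (384.5 to 465.5), and was at 205 CPM and 166 CPM at E19 and in the pup.

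**Figure D5:**
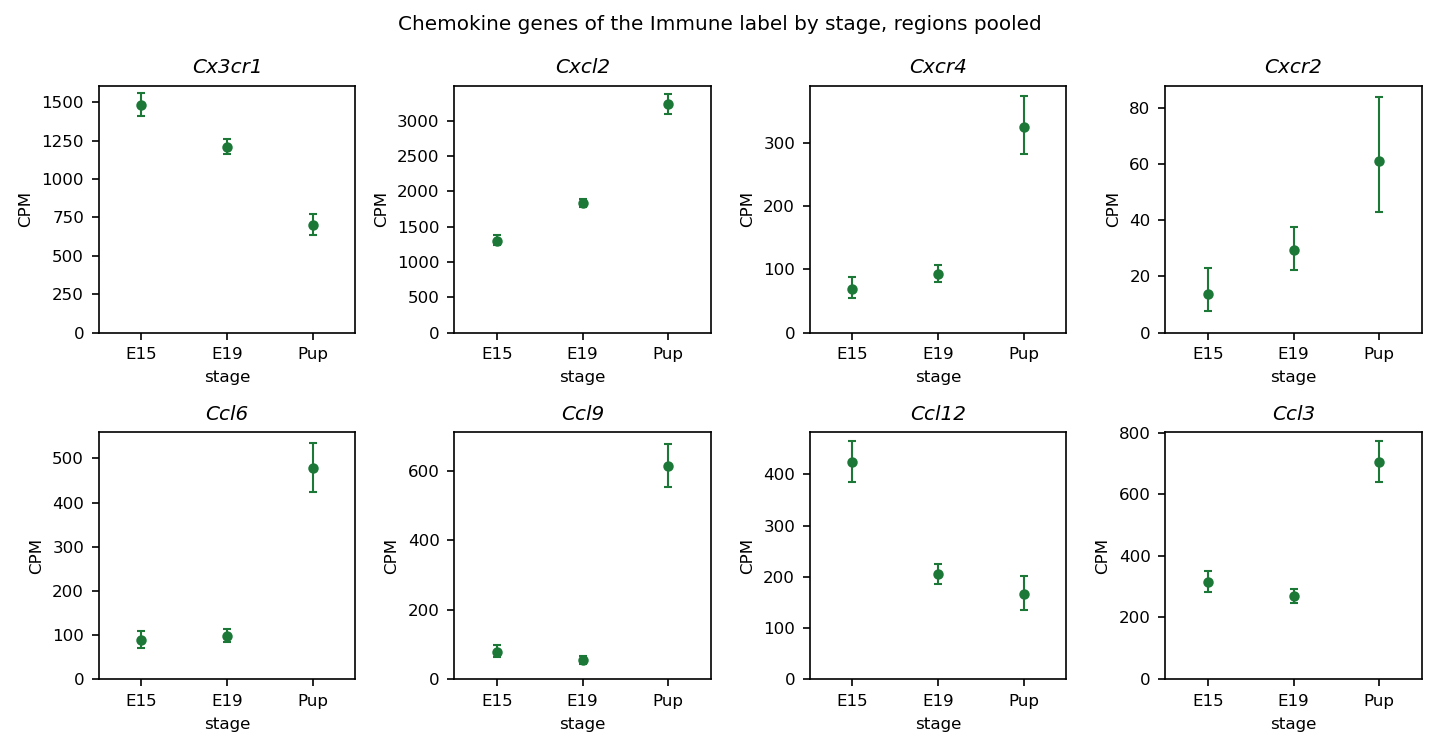
Levels of 8 chemokine genes in cells of the Immune label (CPM of summed UMIs over all regions, linear axes from 0) at E15 (82 cells), E19 (180 cells) and pup (86 cells), with bars giving exact 95% Poisson intervals. *Cx3cr1* and *Ccl12* are highest at E15, and *Cxcl2*, *Cxcr4*, *Ccl6*, *Ccl9* and *Ccl3* are highest in the pup; the 6 adult cells are left out.

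By region, 10 of 15 compared genes were at least 2-fold apart between pup and E15 Immune cells in the esophagus, where 17.4% of all compared genes were, and 12 of 18 in the GE-SCJ, where 22.9% were. The groups held 39 and 26 cells in the esophagus and 30 and 25 cells in the GE-SCJ. In both regions *Ccl6* (3.31 and 3.18), *Ccl9* (3.10 and 2.84), *Cxcr4* (2.20 and 2.99) and *Cxcl16* (1.66 and 2.00) were higher and *Ccl12* (-3.33 and -2.31) was lower in the pup. *Ccl4* (-1.70 and 2.08) and *Ccl24* (-2.37 and 1.35) differed in opposite directions in the 2 regions. *Ccl4* UMIs were concentrated, with 41 of 53 pup UMIs in the esophagus and 117 of 247 in the GE-SCJ in 1 cell.

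In the esophagus, *Cx3cr1* (-1.77, -2.08 to -1.48) and *Cxcl10* (-1.48, -3.11 to -0.07) were also lower in the pup. All 5 pup UMIs of *Cxcl10* were in 1 cell, and 10 of its 16 UMIs at E15 were in 1 cell. *Ccl7* had no UMI in the pup against 62 at E15, 20.3-fold lower with a floor of 3 counts (log2 interval -11.28 to -3.42). In the GE-SCJ, *Cxcr2* (4.42, with 1 UMI at E15), *Ccl3* (2.22, 1.76 to 2.70) and *Cxcl2* (1.57, 1.40 to 1.74) were higher. In the esophagus *Ccl3* was at -0.10 (-0.49 to 0.29). *Ccr2* was lower in the GE-SCJ (-1.66, -2.95 to -0.56). It had 7 pup UMIs there, 5 of them in 1 cell, against 44 at E15, 23 of them in 1 cell. Of the related genes, 6 of 22 compared were higher and 2 lower in the pup esophagus, and 4 and 1 of 21 in the GE-SCJ. Of all compared genes, 17.4% and 22.9% were at least 2-fold apart in either direction in these regions. In the GE-SCJ the count of related genes was close to that of all genes. *Rgs1*, a brake on G protein signaling, was higher in both (2.60 and 2.94). *Ptk2b* was at 1.87 and *Rgs10* at -1.81 in the esophagus, and *Ccrl2*, an atypical receptor of chemerin, at 2.71 and *Pf4* at 1.57 in the GE-SCJ.

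Between the esophagus and the stomach, 6 of 16 compared genes were at least 2-fold apart in Immune cells at E15, where 9.38% of all compared genes were, and 6 of 19 at E19, where 11.7% were. Some kept 1 direction at both stages. *Ccl12* was higher in the esophagus at E15 (1.14, 0.81 to 1.48) and E19 (1.56, 1.20 to 1.91), as was *Ccl7* (2.47, 1.66 to 3.36, and 1.54, 1.05 to 2.03), whereas *Cxcl16* was lower (-1.55, -2.79 to -0.47, and -1.34, -2.44 to -0.40). *Cxcl16* was thus on the gastric side in Immune cells and on the esophageal side in Stromal cells. At E15, *Ccl2* was also higher in the esophagus (1.12) and *Ccl24* (-1.59) and *Ccl6* (-1.05) were lower. At E19, *Ccl4* (-1.32), *Cxcl1* (-1.96) and *Cxcr4* (-1.31) were lower. Of the related genes at E15, 1 was higher and 2 were lower of 21 compared, with *Rgs1* at -2.05, *Cd74*, the MIF receptor chain, at -1.72 and *Arrb1* at 1.02, and at E19 none of 24 was 2-fold apart.

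Neural cells gave few compared genes. Beside *Cxcl1*, which was also higher in the pup esophagus than in the pup stomach (2.57, 1.77 to 3.47), *Cxcr4* was lower in the esophagus than in the stomach at E15 (3 UMIs against 18, -2.07).

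Over all labels, 120 pairs of a chemokine gene and a group could be compared between pup and E15 in 14 groups. Of these, 36 were at least 2-fold higher in the pup, where 11.2% of the pairs of all genes were, and 29 were at least 2-fold lower, where 16.2% were. Between esophagus and stomach, 15 of 105 pairs in 11 groups were higher (5.68% of all pairs) and 25 lower (5.82%). Between adult and pup esophagus, 3 of 11 pairs in 3 groups were higher (13.0%) and 3 lower (13.0%). Pairs of 1 gene in several groups, and groups that share a stage, are not independent of each other.

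Set side by side, some ligands and receptors of a pair led in different labels and others in the same label. *Cxcl12* led in Stromal cells, with *Cxcr4* highest in Immune and Endothelial cells over all stages together. At E15, *Cxcr4* was higher in Columnar Epithelial cells of the GE-SCJ and stomach than in Endothelial cells. *Ackr3* was highest in Stromal-2 (121 CPM), but Stromal cells, at 35.6 CPM, held 1155 of its 2259 UMIs. *Cx3cl1* led in Columnar Epithelial and *Cx3cr1* in Immune cells. *Ccl2*, *Ccl7* and *Ccl12* and their receptor *Ccr2* all led in Immune cells, as did *Ccl3* and *Ccl4* with *Ccr1*, and *Cxcl1* and *Cxcl2* with *Cxcr2*. The lead of *Cxcl1* held over all stages together. In the pup alone, *Cxcl1* was at 481 CPM in Neural cells against 146.5 CPM in Immune cells. *Ccl21a* led in Endothelial cells and its scavenger *Ackr4* in Stromal cells. *Ccl11* with *Ccr3*, *Ccl25* with *Ccr9* and *Cxcl10* with *Cxcr3* had receptors under 20 UMIs. The receptors of *Ccl20*, *Cxcl13* and *Cxcl16* were not analysed here.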

How the data were processed

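Per the methods, the authors ran Cell Ranger 6.1.1 on the mm10 (GRCm38) reference to count UMIs, assigned cells to regions and stages by tag, filtered barcodes, and deposited raw UMI counts of 19550 genes without normalization. The authors also deposited, for each of 7808 cells, a label from their clustering, the total UMIs and the percent of mitochondrial UMIs (at most 19.7). In all 7808 cells the tag agreed in both deposited lists and the total equalled the sum of the counts.

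UMIs were summed by label, region and stage and scaled to CPM, with exact 95% Poisson intervals. Log2 ratios used sums with 1 UMI added to each, and their intervals were conditional on these raised sums. For genes with few UMIs, the added UMI shifts ratio and interval toward a higher level in the shallower group. A ratio was computed for groups of at least 20 cells and genes with at least 20 UMIs over both, and counted from 2-fold. A sum of 0 was replaced by a floor of 3 counts over the group for a fold, which leaves out the counting error of the other sum. Shares of cells used cells thinned to 2000 UMIs (163 shallower cells left out) with exact Clopper-Pearson intervals. With 1 pooled sample per group, no test was run. Beyond the filter of the authors no doublet caller was run, and no barcode occurred more than 1 time.

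Genes were named by a fixed rule: every gene of the set with at least 100 UMIs with its leading and next label and each ratio past 2-fold, and for related genes the 3 largest ratios in a described comparison. The counts include 1 Immune gene that is not reported here. The members, gene lists and alternatives were chosen with earlier results of these data known. Alternatives changed the summing, the cells kept, the library size, the filter, the fold and the depth of thinning. Gene positions follow GENCODE M21 (GRCm38), and promoter sequences are from RefSeq (GRCm38.p6).

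The ratios were tested on simulated Poisson counts for pup over E15 gastric Stromal cells (11162 genes), with changed genes set 4-fold apart. Of 190 changed genes, 100% had the right direction, 93.7% passed 2-fold and 94.2% had the truth in the interval, and 5.29% of 10972 unchanged genes passed 2-fold. The intervals assume the same Poisson counts, so their coverage here was set by the design. UMIs concentrated in single cells were not simulated. Depth per region and stage ranged from 2302227 to 20070615 UMIs. Tools were scanpy 1.11.5 and scikit-learn 1.9.0 for neighbours, pandas 2.3.3 and numpy 2.4.6 for sums, scipy 1.17.1 for intervals and matplotlib 3.10.9 for plots, under Python 3.11.15.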

Additional observations from a re-analysis of the deposited data

Results flagged for a closer look

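In 4 cases the pup over E15 difference pointed in opposite directions in 2 regions, and these differences between regions were not tested. In Stromal cells, *Ccl11* had a log2 ratio of 1.64 in the esophagus and -1.52 in the stomach, which are 3.16 apart. Of the 44 gastric pup UMIs, 24 were in 1 cell. In Immune cells, *Ccl24* had a log2 ratio of 1.35 in the GE-SCJ and -2.37 in the esophagus (3.72 apart). The latter rested on 3 pup UMIs against 20 at E15, 11 of them in 1 cell, and 13 of the 29 pup UMIs in the GE-SCJ were in 1 cell. In the same cells *Ccl4* had 2.08 and -1.70 (3.78 apart), with 117 of 247 and 41 of 53 pup UMIs in 1 cell. In Smooth Muscle, *Cxcl12* had a log2 ratio of 1.17 in the stomach and -1.25 in the esophagus (2.42 apart), and the latter rested on 3 pup UMIs.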

How the results depend on the processing

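No paired analysis was possible because each region and stage is 1 pooled sample and no replicate numbers exist. Without the filter on low counts, pairs past 2-fold numbered 160 higher and 61 lower for pup over E15, 87 and 63 for esophagus over stomach, and 15 and 23 for adult over pup. Here a gene with few UMIs can pass 2-fold through the UMI added to each sum and the unequal depth of the groups. These unfiltered counts therefore give no direction. At 4-fold, with the filter kept, 25 of 120 pairs were higher and 12 lower for pup over E15. For esophagus over stomach it was 3 and 7 of 105 pairs, and for adult over pup 0 and 3 of 11. Shares over all genes were not computed without the filter or at 4-fold, so these counts are not set against other genes. Of 111 ratios past 2-fold, 99 were past it in the same direction when CPM were averaged over cells, 109 with mitochondrial, ribosomal protein and hemoglobin genes left out of the library size, 106 of 108 computed when cells under 1000 UMIs or over 10% mitochondrial UMIs were left out, 106 of 106 without cells of other labels with immune UMIs, and 6 of 6 without adult cells with mostly prenatal neighbours. When the top 1% of cells for a gene were left out it was 85 of 87 computed, and *Cxcl13* in E19 Stromal cells reversed from -1.17 to 0.14. When CPM were averaged over cells, 4 genes led in Endothelial cells instead of 2, the additions being *Cxcl12* and *Cx3cl1*. Thinned to 5000 in place of 2000 UMIs, shares of cells were 45.3% for *Cxcl12* in Stromal, 9.48% for *Cxcr4* in Columnar Epithelial, 14.6% for *Ackr3* in Squamous Epithelial and 79.4% for *Cx3cr1* in Immune cells. Adult Endothelial *Cxcl12* without adult cells with mostly prenatal neighbours, an alternative chosen after seeing the data, was 808 CPM in place of 1001 CPM. Genes under 20 UMIs allow no comparison at this depth.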
